A study of Mus musculus with 6 samples.

Results

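The 7 genes described here encode the endothelin system, with the ligands Edn1, Edn2 and Edn3, the receptors Ednra and Ednrb, and the converting enzymes Ece1 and Ece2. They were taken by gene name from a table of 54532 mouse genes, and each name matched 1 row. Whole ear skin of mice aged 3 months was profiled by RNA-seq in 6 libraries. The 3 CKO libraries came from Ufl1f/f KRT14Cre/+ mice, in which a Cre driven by the keratin 14 promoter acts in basal keratinocytes and their descendants. The 3 CTRL libraries came from mice labelled Ufl1f/+ or Ufl1f/f without Cre, and the labels do not say which CTRL library had which genotype. All 6 libraries therefore came from carriers of a floxed Ufl1 allele, and an effect of the Cre transgene and one of the loss of Ufl1 cannot be told apart. Sex, strain and the number of animals behind a library are not given in the sources used here. The p-values therefore cover the spread among these libraries, which may be technical.

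Endothelins are short secreted peptides that are cut from larger precursors, first by furin-like convertases and then by the membrane metalloproteases ECE1 and ECE2. They act on a pair of G protein-coupled receptors. EDNRA binds endothelin-1 and endothelin-2 more strongly than endothelin-3 and is known from vascular smooth muscle and mesenchymal cells, while EDNRB binds each of the ligands about equally and is carried by melanocytes, endothelium and glia. In skin, keratinocytes and endothelial cells secrete endothelin-1, which stimulates growth and pigment synthesis in melanocytes, and Edn3 with Ednrb is required for melanocytes to populate the skin of the mouse embryo. The title of the series ties the pigmented skin of Ufl1-deficient mice to raised endothelin-1, so the question put to these genes was whether their transcripts differed between CKO and CTRL ears.

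The ligands are close relatives, and the stretch that encodes each mature peptide is printed to show how far the transcripts can be told apart. Each stretch has 63 bases (21 codons), lies in exon 2 of 5 on the plus strand of mm10, and was read from the GENCODE transcripts. The codons in capitals are the 4 cysteine codons that form the disulfide bridges of the peptide.
Edn1, chr13:42303649-42303711: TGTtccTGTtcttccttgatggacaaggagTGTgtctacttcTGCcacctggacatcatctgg
Edn2, chr4:120161951-120162013: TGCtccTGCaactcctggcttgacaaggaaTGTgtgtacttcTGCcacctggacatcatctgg
Edn3, chr2:174761749-174761811: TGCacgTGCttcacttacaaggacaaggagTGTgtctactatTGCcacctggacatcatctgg
Edn1 shared 53 of the 63 bases with Edn2 and 50 with Edn3, and Edn2 shared 48 with Edn3. Over whole transcripts, 0 of the 2090 windows of 50 bases in Edn1, 0 of 1413 in Edn2 and 0 of 4151 in Edn3 occurred in a transcript of any other gene. In Ednra 0.848% of the windows, in Ednrb 0.376% and in Ece1 0.21% occurred elsewhere. Ece2 was the exception, since 54.6% of its windows also occur in Gm49333, a gene model that overlaps it on the same strand and was listed at 0 counts in every library, so reads from that part of Ece2 may not have been counted for it. Edn1, Ednra and Ece1 each overlap a gene on the other strand, Gm47118, 4933431K23Rik and Gm13012, with 21, 96 and 17 counts in all libraries together. No source used here states whether reads were counted by strand. Without strand, reads from a stretch that both partners share cannot be told apart. The windows were compared on both strands, so Edn1 shared 0 with the annotated transcripts of Gm47118. In Ednra the 46 shared windows all occurred in 4933431K23Rik.

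Because the title names endothelin-1, the region around the annotated start of Edn1 is printed as well. It is taken from the RefSeq promoter table (GRCm38.p6, chr13:42301226-42301525, plus strand, 250 bases before the start and 50 from it). Capitals mark TTATCT, the letters of the GATA element, CACGT, the reverse complement of the hypoxia-response core ACGTG, and GTGACTAA, the AP-1 element, all of which are known as regulatory elements of the human gene.
Edn1 promoter: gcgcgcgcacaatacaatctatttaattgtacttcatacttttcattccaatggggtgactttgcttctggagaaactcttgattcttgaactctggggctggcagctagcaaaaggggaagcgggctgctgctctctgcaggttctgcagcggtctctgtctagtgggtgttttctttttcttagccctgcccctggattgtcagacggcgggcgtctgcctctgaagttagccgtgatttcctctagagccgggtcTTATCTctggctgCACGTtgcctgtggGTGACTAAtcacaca
With position 1 at the annotated start, the marked matches began at positions 9, 22 and 36. Both strands were searched, no match overlapped another, and the motifs occurred in 11.2% (TTATCT), 19.6% (ACGTG) and 0.63% (GTGACTAA) of the 32851 promoter windows of this length. The TATAAA box, present in 13.6% of the windows, had no match in this one. These matches are a description of letters, and no binding was measured here. The window ended 50 bases after the annotated start, and any element further on would have been missed. Positions count from the annotated start, and whether transcripts in these ears began there was not tested.

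Library totals ranged from 18212929 to 19050876 counts in CKO and from 17256339 to 20776539 in CTRL. Ufl1 itself was at 34.9, 35.6 and 38.8 CPM in CKO 1 to 3, against 57.9, 47.0 and 46.1 CPM in CTRL 1 to 3, where CPM are counts scaled to the TMM-adjusted library size. All CKO libraries thus lay below all CTRL libraries for the targeted gene, which was so in this direction for 4.81% of all genes tested. Its log2 fold change was -0.47 (SE 0.14) and it was not called (edgeR adjusted p = 0.778). CTRL 1 and CTRL 2 stood apart from the other libraries, with quality weights estimated by limma of 0.336 and 0.322, against 1.06 to 2.42 in CKO and 2.79 in CTRL 3. Mitochondrial transcripts took 2.49% to 2.71% of the counts in CKO, and 4.59% in CTRL 1, 2.97% in CTRL 2 and 2.28% in CTRL 3. Markers of skin cells were present throughout, with 0 of 64 markers in 10 lists at 0 in all libraries. Whole skin was sampled, so fewer cells of a type and less RNA per cell cannot be told apart in any value that follows.

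Compared per length, on the deposited FPKM, Ece1 was the most abundant of these transcripts and Ece2 was close to the limit of detection. Over the 6 libraries the mean FPKM was 29.0 ± 2.43 for Ece1, 7.66 ± 1.43 for Ednra, 4.44 ± 1.72 for Ednrb, 3.10 ± 1.01 for Edn1, 1.06 ± 0.647 for Edn2, 1.06 ± 0.326 for Edn3 and 0.0215 ± 0.0186 for Ece2 (SD, n = 6 libraries of both groups). Only Ece1 at the top and Ece2 at the bottom had ranges clear of their neighbour in this order. Ednra was above Ednrb, and Ednrb above Edn1, in 6 of 6 libraries each, although their ranges over libraries overlapped. Edn1 was above Edn2 in 5 of 6 libraries, and Edn2 was above Edn3 in 2 of 6, so the order of Edn2 and Edn3 was not resolved. Among the 17318 genes tested, 38.9% had a lower mean FPKM than Edn1, 62.4% a lower one than Ednra and 89.5% a lower one than Ece1.

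**Figure D1:**
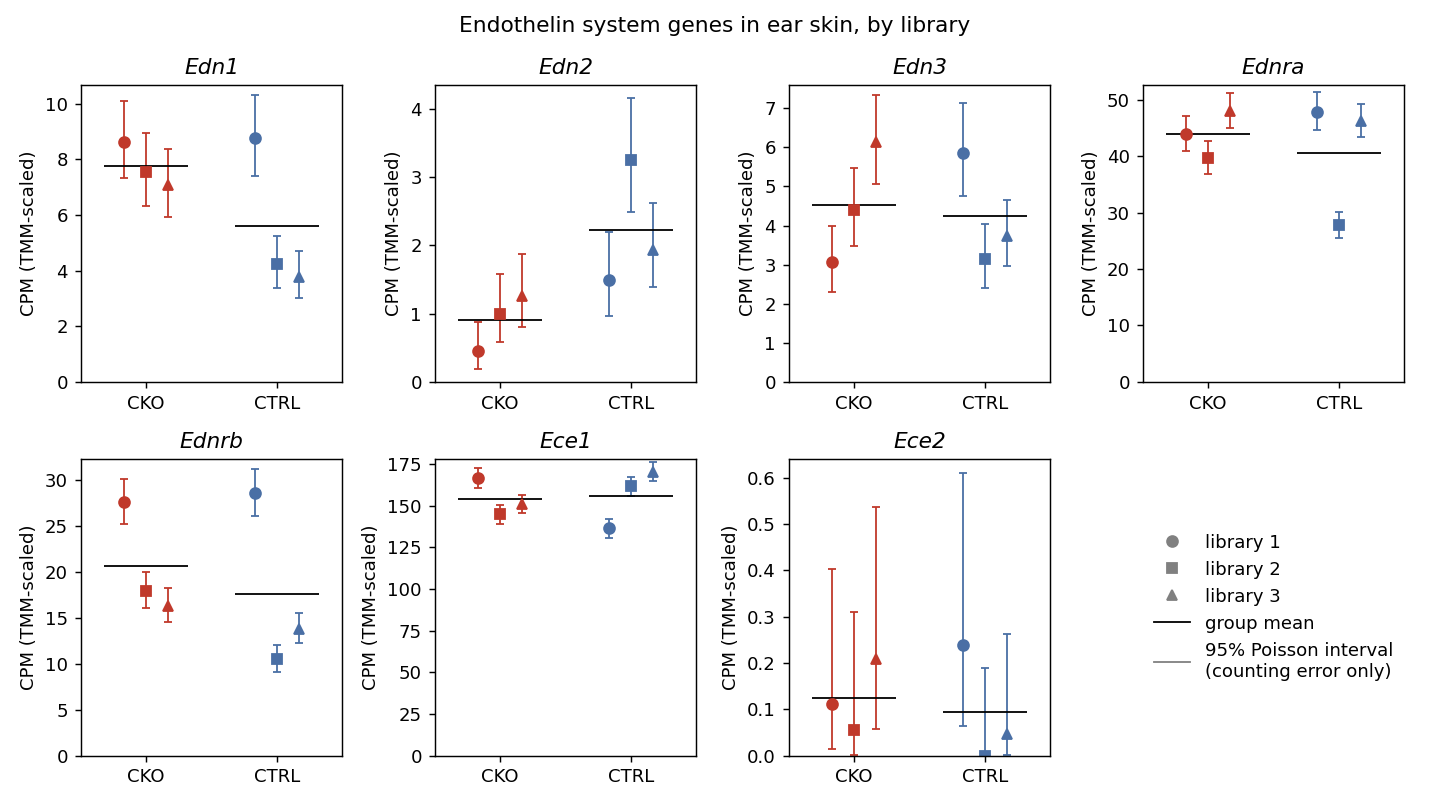
CPM (TMM-scaled, linear axes from 0) of each gene in the 3 CKO and 3 CTRL libraries. Points are libraries, lines are group means, and bars are 95% Poisson intervals that cover counting error only. Edn2 is the only gene whose CKO and CTRL points do not overlap. Of all genes tested, 4.81% did not overlap with CKO lower and 5.73% with CKO higher. CTRL 1 stands with the CKO libraries for Edn1.

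Edn1, the endothelin-1 gene (ENSMUSG00000021367, chromosome 13, 42301476 to 42307990, mm10), had a higher mean in CKO ears, but the groups overlapped. It had 155, 136 and 135 counts in CKO 1 to 3 and 147, 82 and 80 counts in CTRL 1 to 3. Scaled to library size, these are 8.64, 7.55 and 7.07 CPM in CKO and 8.77, 4.23 and 3.78 CPM in CTRL. The CKO libraries were close to each other, with a highest value 1.22 times the lowest, while this ratio was 2.32 in CTRL. CTRL 1 was the highest of all libraries, and CTRL 2 and CTRL 3 were the lowest. Their 95% Poisson intervals were 7.41 to 10.3 CPM for CTRL 1, 3.36 to 5.25 CPM for CTRL 2 and 3.00 to 4.70 CPM for CTRL 3, so CTRL 1 differed from the other CTRL libraries by more than counting error. Group means were 7.75 ± 0.803 CPM in CKO and 5.59 ± 2.76 CPM in CTRL (SD, n = 3 each). The edgeR quasi-likelihood test gave a log2 fold change of 0.48 (SE 0.34), or 1.39-fold with a 95% interval of 0.806 to 2.40, with an adjusted p of 0.997 (Benjamini-Hochberg over all genes tested, 0.201 before adjustment). The exact permutation test, two-sided, had p = 0.4, where 0.1 is the smallest p that 3 libraries against 3 allow. In the same fit 7.60% of all genes had a log2 fold change at least as high as that of Edn1.

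The size of the Edn1 difference depended on which CTRL libraries were included. Leaving out 1 library at a time gave log2 fold changes from 0.26, without CTRL 3, to 0.95, without CTRL 1. Without CTRL 1 the edgeR p was 0.00485 before and 0.397 after adjustment, in a fit in which 10.5% of all genes had an unadjusted p under 0.05. Weighting libraries by their quality in limma-voom, which gave CTRL 1 and CTRL 2 the lowest weights, also gave 0.95, with a limma adjusted p of 0.153 (0.00267 before adjustment). That fit had 15.9% of all genes below 0.05 before adjustment. The authors' deposited table lists Edn1 at 0.48, also on the log2 scale, with an adjusted p of 0.9999, in a table where 0.277% of genes are under 0.05.

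Edn2, the endothelin-2 gene (ENSMUSG00000028635, chromosome 4, 120161206 to 120167360), was the member with the widest separation of the groups, and its values were lower in CKO. It had 8, 18 and 24 counts in CKO 1 to 3 and 25, 63 and 41 counts in CTRL 1 to 3, which are 0.446, 0.999 and 1.26 CPM in CKO and 1.49, 3.25 and 1.94 CPM in CTRL. Every CKO library lay below every CTRL library, as was the case in this direction for 4.81% of all genes tested. The margin was narrow, since the 95% Poisson interval of CKO 3 was 0.805 to 1.87 CPM and that of CTRL 1 was 0.965 to 2.20 CPM. The summed counts were 50 in CKO and 129 in CTRL, so that relative to the library totals CTRL was 2.52-fold higher, with an exact 95% interval of 1.80 to 3.56 that covers counting error alone. With the spread between libraries included, the edgeR log2 fold change was -1.30 (SE 0.48), or 0.407 of the CTRL level with a 95% interval of 0.188 to 0.878. Its edgeR p was 0.0273 before and 0.857 after adjustment, where 1.95% of all genes tested were lower in CKO at an unadjusted p under 0.05. The exact permutation test gave p = 0.1, the smallest it allows. Edn2 was thus not called, and the authors' deposited table lists it at -1.30 on the log2 scale with an adjusted p of 0.678. CKO 1, which had the highest Edn1 value of its group, had the lowest Edn2 value of all libraries, and CTRL 2 had the highest.

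Edn3, the endothelin-3 gene (ENSMUSG00000027524, chromosome 2, 174760619 to 174784042), varied as much within each group as between them. It was at 3.07, 4.39 and 6.13 CPM in CKO 1 to 3, against 5.85, 3.14 and 3.73 CPM in CTRL 1 to 3. The lowest and the highest of the 6 libraries were both CKO libraries. Means were 4.53 ± 1.54 CPM in CKO and 4.24 ± 1.42 CPM in CTRL (SD, n = 3 each), and the fold was 1.07 with a 95% interval of 0.609 to 1.88 (edgeR adjusted p = 0.997).

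Within a library, the 3 ligand transcripts can be set against each other as shares, which do not depend on library scaling, unlike their summed FPKM. Their summed level was 5.03, 5.24 and 5.64 FPKM in CKO 1 to 3 and 6.51, 4.88 and 3.98 FPKM in CTRL 1 to 3, so that the CKO range lay inside the CTRL range. Edn1 made up 79.4%, 66.9% and 58.5% of this sum in CKO and 62.7%, 39.8% and 44.2% in CTRL. CTRL 1 again lay among the CKO libraries and the other CTRL libraries lay below them. Edn2 contributed 5.99%, 12.9% and 15.2% in CKO and 15.6%, 44.8% and 33.1% in CTRL, with no overlap between the groups but with CKO 3 and CTRL 1 side by side. CTRL 2 was the only library in which Edn2 exceeded Edn1, at a ratio of Edn1 to Edn2 of 0.890, against 3.84 to 13.2 in CKO. Edn3 averaged 20.4% in CKO and 19.9% in CTRL. These shares rest on the same counts as the values of the single genes and were not tested.

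**Figure D2:**
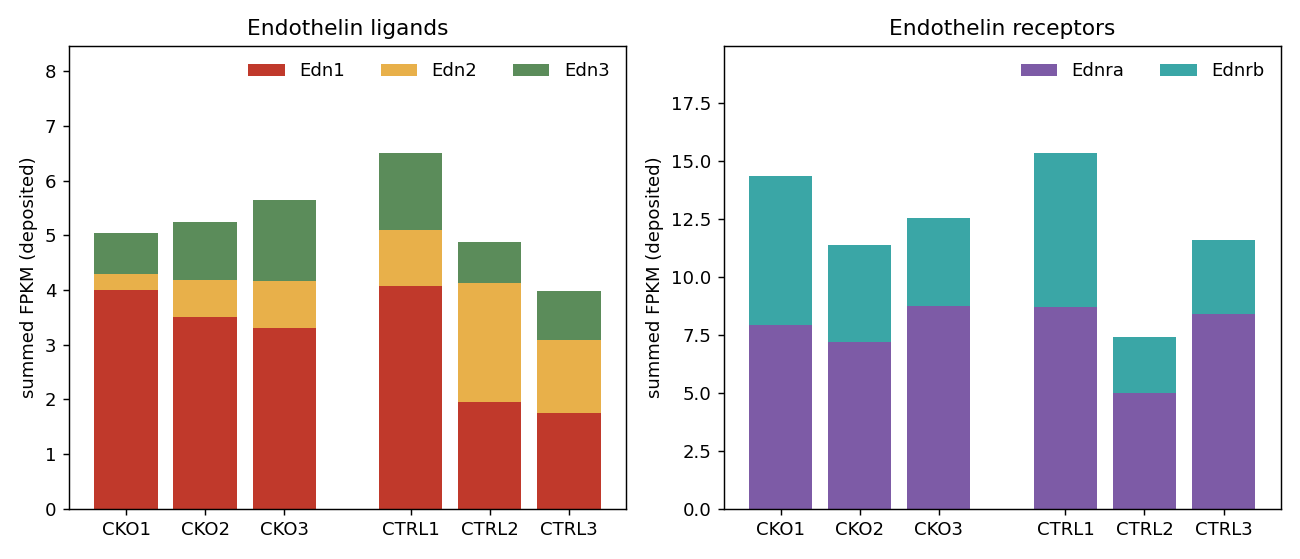
Deposited FPKM of the ligand genes (left) and receptor genes (right), stacked for each CKO and CTRL library on linear axes from 0. The ligand sum is similar in both groups, at 5.03 to 5.64 FPKM in CKO and 3.98 to 6.51 FPKM in CTRL, while the Edn2 part is smaller in every CKO library.

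Ednra, the endothelin A receptor gene (ENSMUSG00000031616, chromosome 8, 77663031 to 77724464), was at a similar level in 5 of the libraries. It was at 44.0, 39.6 and 48.0 CPM in CKO 1 to 3, against 47.9, 27.7 and 46.2 CPM in CTRL 1 to 3. CTRL 2 was the low library, and the CKO values lay within the CTRL range apart from CKO 3, which was just above it. The means were 43.9 ± 4.20 CPM in CKO and 40.6 ± 11.2 CPM in CTRL (SD, n = 3 each). The edgeR log2 fold change of 0.11 (SE 0.21; adjusted p = 0.997) was -0.10 without CTRL 2. Fibroblast markers, 6 genes summed, were also lowest in CTRL 2, at 9655 CPM. They were at 20435 to 21657 CPM in CKO, 25370 CPM in CTRL 1 and 15561 CPM in CTRL 3. CTRL 3 was thus below the CKO libraries for these markers but not for Ednra. The part of fibroblasts in the Ednra value was not tested. Mural and smooth muscle markers, 7 genes, summed to 519 to 599 CPM in CKO and 466 to 548 CPM in CTRL.

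Ednrb, the endothelin B receptor gene (ENSMUSG00000022122, chromosome 14, 103814625 to 103844402), had its highest values in 1 library of each group. It was at 27.5, 17.9 and 16.3 CPM in CKO 1 to 3, against 28.5, 10.5 and 13.8 CPM in CTRL 1 to 3. CKO 1 and CTRL 1 stood above the remaining libraries, and the groups overlapped. The means were 20.6 ± 6.07 CPM in CKO and 17.6 ± 9.60 CPM in CTRL (SD, n = 3 each), a fold of 1.17 with a 95% interval of 0.639 to 2.15 (edgeR adjusted p = 0.997, 0.562 before adjustment). The log2 fold change was 0.23 with all libraries, 0.76 without CTRL 1 and -0.04 without CTRL 2 or without CKO 1. Melanocyte markers, a list of 8 pigment and lineage genes, summed to 191 to 281 CPM in CKO and 64.6 to 81.9 CPM in CTRL, with no overlap. In that list edgeR called 1 of 8 genes, against 0.0173% of all genes, and DESeq2 called 7, against 0.526%, all higher in CKO. The median log2 fold change was 2.04, and the lineage factor Mitf was at 0.12. CKO 3 had the highest melanocyte sum and the lowest Ednrb value of its group. Of other cells that carry Ednrb, the 6 Schwann cell markers summed to 451 to 665 CPM in CKO and 652 to 1113 CPM in CTRL, and the 8 endothelial markers to 391 to 460 CPM in CKO and 359 to 476 CPM in CTRL. The part of these cell types in the Ednrb value was not tested.

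The sum of both receptors was 14.3, 11.4 and 12.6 FPKM in CKO 1 to 3 and 15.4, 7.39 and 11.6 FPKM in CTRL 1 to 3. Ednrb took 44.6%, 36.7% and 30.3% of it in CKO and 43.3%, 32.6% and 27.7% in CTRL. Ednra was the larger part in every library, and the ranges of the groups overlapped over most of their length.

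**Figure D3:**
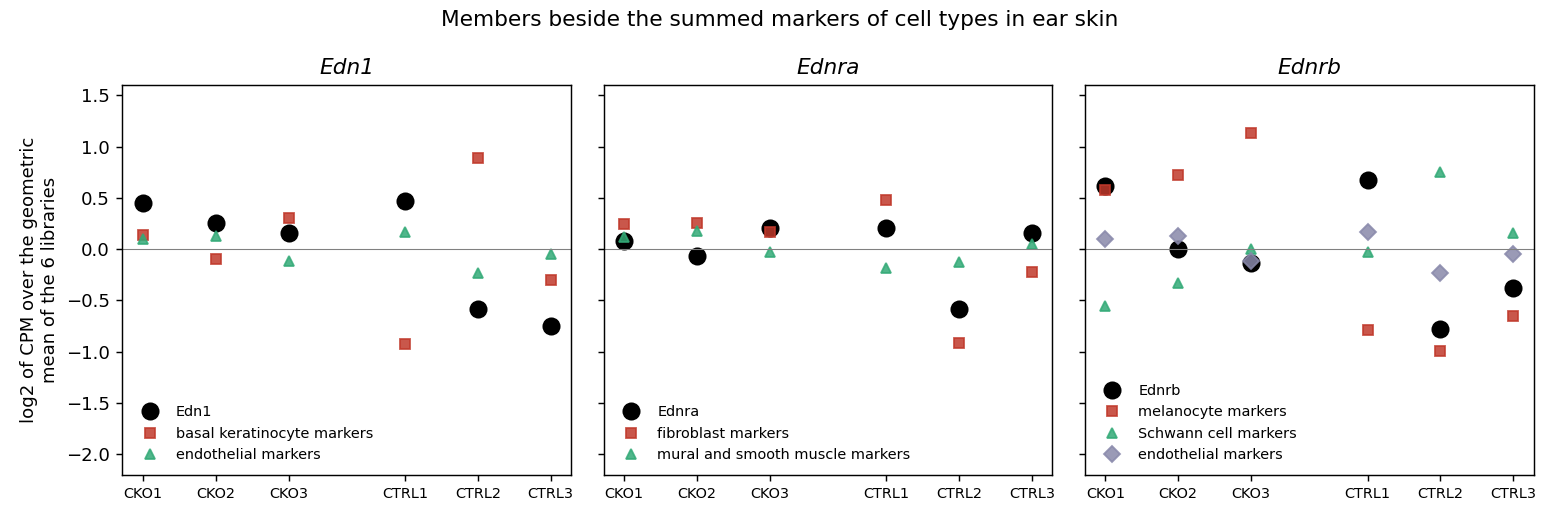
Log2 of the CPM of Edn1, Ednra and Ednrb (black circles) and of summed marker genes of cell types (coloured symbols), each relative to its geometric mean over the 6 libraries, for CKO 1 to 3 and CTRL 1 to 3. Melanocyte markers separate the groups (191 to 281 CPM in CKO, 64.6 to 81.9 CPM in CTRL) while Ednrb does not. CTRL 2 is lowest for Ednra and for fibroblast markers alike. CTRL 3 is below the CKO libraries for fibroblast markers (15561 CPM) but among them for Ednra (46.2 CPM).

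Keratinocytes and endothelial cells are known sources of endothelin-1, and their markers were set beside Edn1. The 6 basal keratinocyte markers summed to 6071, 5161 and 6838 CPM in CKO 1 to 3 and to 2909, 10213 and 4503 CPM in CTRL 1 to 3. CTRL 1, which had the most Edn1 among the CTRL libraries, had the lowest sum of these markers, and CTRL 2 the highest. Suprabasal keratinocyte markers, 5 genes, summed to 7133 to 9822 CPM in CKO and 4877 to 8946 CPM in CTRL. The endothelial sum was 452, 460 and 391 CPM in CKO 1 to 3 and 476, 359 and 410 CPM in CTRL 1 to 3. It was highest in CTRL 1, as was Edn1, and lowest in CTRL 2, while Edn1 was lowest in CTRL 3. For none of these lists did the groups separate. Sums of fibroblast, mast cell and skeletal muscle markers were also highest in CTRL 1, at 25370, 555 and 5440 CPM. Those of the mural, melanocyte, Schwann cell and macrophage lists were highest in other libraries. The part of any of these cell types in the Edn1 value was not tested.

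Ece1, the main endothelin-converting enzyme gene (ENSMUSG00000057530, chromosome 4, 137862237 to 137965229), had the narrowest interval of the members, and the difference between the groups was within the spread of the libraries. It was at 167, 145 and 151 CPM in CKO 1 to 3, against 136, 162 and 170 CPM in CTRL 1 to 3. The CKO libraries lay inside the range of the CTRL libraries, of which CTRL 1 was the lowest. The fold was 0.987 with a 95% interval of 0.792 to 1.23 (edgeR log2 fold change -0.02, SE 0.14, adjusted p = 0.997). Its variation between libraries, a biological coefficient of variation of 14.8%, was below the median of 21.5% over all genes tested, whereas Edn1 had 30.7%, Ednrb 33.6% and Edn2 38.7%.

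Ece2, which encodes the second converting enzyme (ENSMUSG00000022842, chromosome 16, 20629828 to 20646485), had 2, 1 and 4 counts in CKO 1 to 3 and 4, 0 and 1 counts in CTRL 1 to 3. The 0 in CTRL 2 allows a level of up to 0.155 CPM by the limit of 3 counts, a one-sided bound, while the two-sided 95% Poisson interval in the plot of values by library reaches 0.190 CPM. It did not pass the filter on low counts and was not tested, so 6 of the 7 members were tested. Reads from the part it shares with Gm49333 may be missing from these counts.

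Across the system, edgeR called 0 of the 6 tested members at an adjusted p under 0.05, while it called 0.0173% of all genes tested. DESeq2, which called 0.526% of all genes, and limma-voom, which called 0%, also called 0 of the 6. At an unadjusted p under 0.05, 1 of the 6 members (Edn2) passed in edgeR, DESeq2 and limma-voom alike, against backgrounds of 5.33%, 5.85% and 5.14% of all genes. The median log2 fold change of the 6 members was 0.11 and that of all genes tested was -0.01. Log2 fold changes were above 0 for 4 of the 6 members and for 47.8% of all genes.

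**Figure D4:**
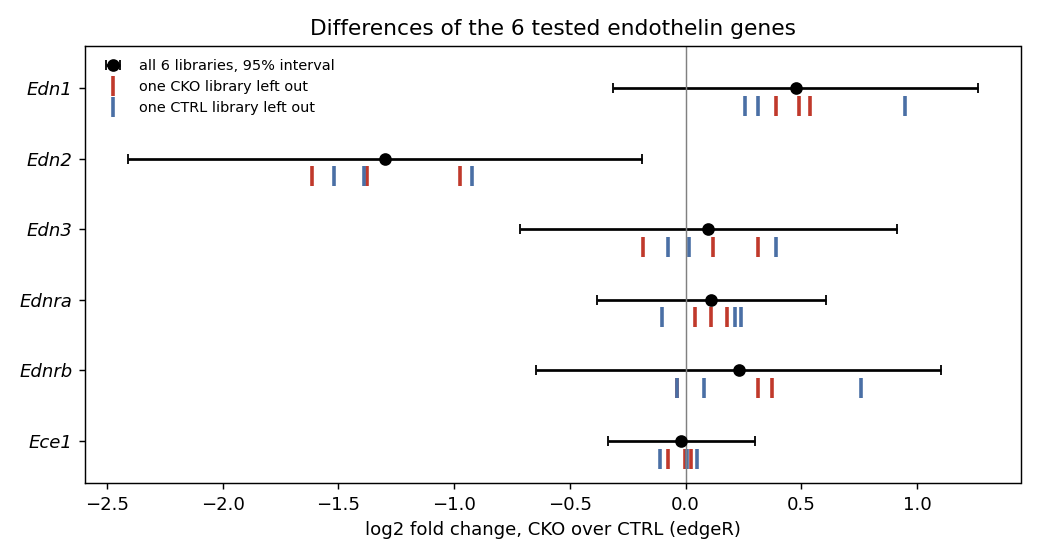
Log2 fold change of CKO over CTRL for the 6 tested members. Black points and bars are the edgeR estimate and its 95% interval with all libraries, and ticks below are estimates with 1 CKO (red) or 1 CTRL (blue) library left out. Only the interval of Edn2 (-2.41 to -0.19) does not cross 0, and leaving out CTRL 1 moves Edn1 to 0.95 and Ednrb to 0.76.

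Genes that process or degrade endothelins were taken from a list of 11, of which 8 were tested. Of these 8, 0 were called in either direction by edgeR or DESeq2, against 0.0173% and 0.526% of all genes. At an unadjusted p under 0.05 in edgeR, 0 of the 8 passed, against 5.33% of all genes. Their median log2 fold change was 0.17. Ctsa, the lysosomal carboxypeptidase cathepsin A that can inactivate endothelin-1, was at 269, 240 and 224 CPM in CKO 1 to 3, against 202, 196 and 209 CPM in CTRL 1 to 3. Its log2 fold change was 0.27 (SE 0.13), and the groups did not overlap, which was so for 5.73% of all genes in this direction. The proprotein convertase gene Pcsk5 was at 0.78 (SE 0.45), the mast cell chymase gene Cma1 at 0.19 (SE 0.19) and the convertase gene Pcsk6 at 0.15 (SE 0.18) on the log2 scale. Furin and Mme were named after their values were seen. Furin, which releases big endothelin from its precursor, averaged 158 ± 11.2 CPM in CKO and 152 ± 38.9 CPM in CTRL (SD, n = 3 each). Mme, the endopeptidase neprilysin that degrades endothelins, averaged 49.0 ± 9.80 CPM in CKO and 51.3 ± 25.3 CPM in CTRL.

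Signalling from the receptors runs through Gq-class G proteins, phospholipase C and protein kinase C. All 26 listed genes of this machinery and its regulators were tested. Of these 26, 0 were called in either direction by edgeR or DESeq2, against 0.0173% and 0.526% of all genes. Before adjustment, 1 was higher in CKO with an edgeR p below 0.05, against 3.38% of all genes in this direction. Their median log2 fold change was 0.03. That gene was Plcb2, a phospholipase C of haematopoietic cells, at 4.85, 5.27 and 9.27 CPM in CKO 1 to 3, against 2.86, 4.07 and 3.73 CPM in CTRL 1 to 3. Its log2 fold change was 0.86 (SE 0.32), with an edgeR p of 0.0275 before and 0.857 after adjustment. Macrophage markers, 6 genes, summed to 605 to 881 CPM in CKO and 341 to 733 CPM in CTRL, and their part in the Plcb2 value was not tested. The G protein gene Gna11 was at -0.24 (SE 0.14), Gna13 at 0.19 (SE 0.15) and the protein kinase C gene Prkce at 0.23 (SE 0.19) on the log2 scale.

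Transcription factors that are known to act on the Edn1 promoter, mostly from endothelial cells, were compared as a list of 13, of which all 13 were tested. Of these, 0 were called by edgeR or DESeq2, against 0.0173% and 0.526% of all genes, and 0 had an edgeR p below 0.05 before adjustment, against 5.33%. Their log2 fold changes ran from -0.16 to 0.20. The members with the smallest p were Vezf1 (-0.16, SE 0.16), Hif1a (0.16, SE 0.17), Smad3 (0.13, SE 0.17) and Junb (0.20, SE 0.26).

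The genes with the most similar pattern to a member were found as the smallest root-mean-square difference between profiles of log2 CPM over the 6 libraries, each centred on its mean, among 15886 genes with a mean of at least 1 CPM. For Edn1 these were Atp6v0d2, which encodes a subunit of the vacuolar proton pump (difference 0.06), and the pseudogene or predicted genes Tma7-ps (0.08) and Gm21378 (0.10), where the spread of Edn1 around its own mean was 0.47. Atp6v0d2 was at 6.74, 6.11 and 6.23 CPM in CKO 1 to 3, against 6.92, 3.30 and 2.98 CPM in CTRL 1 to 3. It thus shared the high CTRL 1 and the low CTRL 2 and CTRL 3. For Ednrb the most similar genes were the chemokine gene Ccl9 (0.10), Cd300lb (0.12) and Pla2g7 (0.14), which are known from myeloid cells, against a spread of 0.51 for Ednrb. Ccl9 was at 74.3, 43.6 and 44.4 CPM in CKO 1 to 3, against 64.5, 24.5 and 34.9 CPM in CTRL 1 to 3. For Edn3 they were Gm26530 (0.09), Smarce1-ps1 (0.13) and Cass4 (0.14), against a spread of 0.39. The likeness over 6 libraries is given as a description.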

How the data were processed

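Total RNA of ear skin was extracted with TRIzol and prepared with a NEBNext Ultra kit, per the labels' protocols, and the submitters' processing notes name HISAT2, HTSeq and mm10, with strand and counting settings not given in the sources used here. The authors deposited raw counts of each gene, which were tested, and FPKM values, which were used to compare genes per length. The same deposited table holds the authors' normalized mean counts (a signal value), log2 fold changes and p-values. Of 54532 genes, 17318 passed filterByExpr. The 3 CKO and 3 CTRL libraries were compared in edgeR 4.0.16 (R 4.3.3) by its quasi-likelihood test with TMM scaling, robust estimation and no covariates, and p-values were adjusted by Benjamini-Hochberg with a threshold of 0.05. Each standard error was taken as the log2 fold change over the root of F, and 95% intervals use the t distribution with the fit's degrees of freedom. Poisson and exact intervals cover counting error only. No pair of libraries agreed within sampling noise (chi-square per degree of freedom at least 17.9).

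Alternatives were other scalings and filters, DESeq2 1.42.0, limma 3.58.1 (voom, and log2 FPKM with pseudocounts of 1 and 0.1), the replicate number as a block, and leaving out each library. The members and lists were chosen with earlier results of these data known. Genes named were the members, Ufl1, up to 4 genes per pathway list with the smallest p, and the 3 genes most like Edn1, Edn3 and Ednrb. Sequences come from GENCODE M21, whose coordinates equal those of the table for all 7 members, and from RefSeq (GRCm38.p6).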

Additional observations from a re-analysis of the deposited data

How the results depend on the processing

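None of the 6 tested members was called under any of the 18 alternatives, and the sign was kept under all 18 for Edn1 (0.41 to 0.95 on the log2 scale over 12 changes of method, 0.26 to 0.95 with 1 library left out) and for Edn2 (-1.46 to -0.62, and -1.62 to -0.92). Adjusted p ranged from 0.153 to 1 for Edn1 and from 0.184 to 1 for Edn2, whose unadjusted p was under 0.05 in 15 of the 18, as was that of Edn1 in 2 and that of Ednrb in 1. With 1 library left out, log2 fold changes ranged from -0.18 to 0.39 for Edn3, from -0.10 to 0.24 for Ednra, from -0.036 to 0.76 for Ednrb and from -0.11 to 0.049 for Ece1. Quality weights turned Ednra to -0.020. Signs also turned for Edn3 without CTRL 2 (-0.08) or CKO 3 (-0.18), for Ednra without CTRL 2 (-0.10), for Ednrb without CTRL 2 (-0.036) or CKO 1 (-0.036), and for Ece1 without CTRL 2 (0.0063), CTRL 3 (0.049) or CKO 2 (0.023). The cause was not tested. With 1 library left out, the log2 ratio of summed FPKM ranged from -0.10 (without CTRL 3) to 0.26 (without CTRL 1) for ligands (0.05 with all), from -0.08 (without CTRL 2) to 0.42 (without CTRL 1) for receptors (0.15) and from -0.10 to 0.05 for converting enzymes (-0.02), so none kept its sign throughout. The CKO minus CTRL difference in the share of Edn1 stayed positive, at 13.8 to 26.2 percentage points, while that of Ednrb ran from -1.02 (without CKO 1) to 7.04 (without CTRL 1) and was -0.764 without CTRL 3.

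Counts of called genes, 2 higher and 1 lower in edgeR, were 67 and 24 in DESeq2, 18 and 7 without a filter beyond 1 count, 19 and 7 with quality weights, and 0 and 0 in limma-voom (564 and 327 at an unadjusted p under 0.05) and on each FPKM scale (490 to 678 and 307 to 547). They were 0 to 2 higher and 0 to 2 lower with 1 library left out (332 to 927 and 170 to 949 at an unadjusted p under 0.05). With the replicate number as a block they were 10 and 2, and Edn1 was at 0.57 (edgeR adjusted p = 1, 0.0956 before adjustment). The deviations of same-numbered libraries correlated at 0.22, -0.04 and -0.04 across genes, and those of differently numbered libraries at -0.16 to 0.19. With 3 libraries per group, these values cannot decide whether the numbers pair the samples. Low counts limit Edn2 and Ece2, of which the second did not pass the filter of the main fit and was not tested there.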
